A study of Drosophila melanogaster with 3 samples.

Results

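Mitochondrial ribosomal protein genes are nuclear genes whose products are imported into mitochondria and assembled, with ribosomal RNAs encoded by the mitochondrial genome, into the large (mRpL) and small (mRpS) subunits of the mitochondrial ribosome. They were taken as all protein-coding genes of the Ensembl BDGP6 annotation with a symbol of mRpL or mRpS followed by a digit, which gave 73 of 13945 protein-coding genes, 47 of the large and 26 of the small subunit. Of these, 21 lay on chromosome arm 3R, 17 on 3L, 12 each on 2L and 2R, 11 on X and 0 on chromosome 4. The symbol alone decided which genes were members, and no measured value entered that rule. The group itself was chosen with earlier results of these data known. The genes bonsai and tko, which encode mitochondrial ribosomal proteins under older names, fell outside the symbol rule.

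Binding of Jarid2 had been mapped by chromatin immunoprecipitation and sequencing (ChIP-seq). The chromatin was from whole Drosophila melanogaster embryos, male and female together, 0 to 24 h old. The embryos came from a transgenic line that stably expressed Jarid2 with green fluorescent protein (GFP) at its C terminus, chromatin was sheared by sonication to 200 to 800 bp, and an antibody against GFP was used, although the antibody field of the labels names Jarid2. There was 1 group of 3 biological replicates, and embryos without the transgene were not analysed here. The promoter that drives the fusion, and whether endogenous Jarid2 was also present, were not given in the labels.

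Jarid2 is a DNA-binding protein that associates with Polycomb repressive complex 2, which methylates lysine 27 of histone H3 at silenced developmental genes. The mitochondrial ribosome translates the few proteins encoded by the mitochondrial genome, which are core subunits of the respiratory chain and of ATP synthase, so that its genes are used in most cells of an embryo. In the compact fly genome many such housekeeping genes lie head to head with another gene, with both starts in 1 short shared stretch. A summit of bound chromatin in that stretch therefore lies near the starts of both genes.

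Each peak of the deposited lists has a summit, the position of its highest enrichment, and a signal, a value from the authors' caller that is comparable within a list only and that was used here for ranks. The list of 5464 peaks that passed the authors' test of reproducibility between replicates supplied the reproducible summits, and the 3 replicate lists held 30000 peaks each, weak regions included. For equal footing, the 5464 strongest peaks of each replicate were used, and a gene had a summit when one lay within 1000 bp of any of its annotated starts. The lists give no read numbers, and the depth of the replicates was therefore unknown. The whole mix of embryonic cell types was sampled, so fewer cells with bound Jarid2 and less Jarid2 per cell cannot be told apart.

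Before the counts, 6 sequences are given as examples of the starts of these genes, and they were not drawn to be typical. They are given in the direction of the mitochondrial ribosomal protein gene, from the Release 6 reference assembly of RefSeq, which shares its coordinates with dm6, and each ends after the first 30 transcribed bases. Capitals mark the E-box CAGCTG, the motif whose share differed most between these promoters and all promoters among the 7 searched. The window of mRpL13 (chr2L:18859219-18859448, minus strand) is shown because its summit had no start nearer than its own, and it has its start at base 201. The stronger summits of this kind, at mRpL41 and mRpL23, are not shown. The mRpL24 stretch (chr2L:4945332-4945578, minus strand) runs from the start of betaggt-I, which is read the opposite way, to the mRpL24 start at base 218. The stretches between Art3 and mRpS10 (chr3R:15229409-15229694, plus strand, start at base 257) and between Mon1 and mRpS2 (chr2L:4850390-4850640, minus strand, start at base 222) held peaks in replicates 1 and 3 and none in replicate 2. The windows of mRpS33 (chr3R:16436568-16436797, minus strand) and mRpS35 (chr3L:2780699-2780928, plus strand), with starts at base 201, had no summit in any list and no divergent partner. The last 4 were chosen after their values were seen.
mRpL13: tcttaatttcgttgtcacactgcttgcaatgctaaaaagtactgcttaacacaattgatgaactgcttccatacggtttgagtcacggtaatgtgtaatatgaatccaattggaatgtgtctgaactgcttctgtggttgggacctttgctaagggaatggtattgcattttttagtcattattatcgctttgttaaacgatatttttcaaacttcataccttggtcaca
mRpL24: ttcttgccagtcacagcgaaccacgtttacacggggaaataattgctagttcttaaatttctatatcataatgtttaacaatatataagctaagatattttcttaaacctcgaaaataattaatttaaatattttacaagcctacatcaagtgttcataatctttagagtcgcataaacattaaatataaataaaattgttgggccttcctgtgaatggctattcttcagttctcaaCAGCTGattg
mRpS10: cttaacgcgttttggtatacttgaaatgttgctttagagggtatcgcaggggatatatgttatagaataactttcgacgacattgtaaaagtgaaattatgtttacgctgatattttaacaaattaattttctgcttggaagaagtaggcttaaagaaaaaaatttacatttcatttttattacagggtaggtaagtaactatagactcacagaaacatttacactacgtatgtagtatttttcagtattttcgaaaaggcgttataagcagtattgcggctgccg
mRpS2: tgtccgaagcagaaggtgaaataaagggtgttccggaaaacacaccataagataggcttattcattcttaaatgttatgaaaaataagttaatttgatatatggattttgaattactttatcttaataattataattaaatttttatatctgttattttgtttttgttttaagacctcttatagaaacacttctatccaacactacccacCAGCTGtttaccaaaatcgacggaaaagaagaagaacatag
mRpS33: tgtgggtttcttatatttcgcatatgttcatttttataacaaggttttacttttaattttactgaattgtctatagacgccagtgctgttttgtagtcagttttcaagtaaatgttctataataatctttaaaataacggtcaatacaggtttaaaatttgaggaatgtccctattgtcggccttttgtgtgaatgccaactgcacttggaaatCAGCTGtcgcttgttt
mRpS35: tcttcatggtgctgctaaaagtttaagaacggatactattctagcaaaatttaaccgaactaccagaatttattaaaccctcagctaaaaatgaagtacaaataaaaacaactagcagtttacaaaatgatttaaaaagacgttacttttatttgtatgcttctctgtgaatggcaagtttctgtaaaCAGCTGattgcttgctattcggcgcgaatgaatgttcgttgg

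The reproducible summit of mRpL13 falls on base 74 of its sequence, and the replicates placed theirs at bases 154, 117 and 143 in replicates 1, 2 and 3. At mRpL24 the summit is base 93, with the replicates at bases 94, 93 and 45, all on the side of betaggt-I. At mRpS10 the summits of replicates 1 and 3 are bases 121 and 115. At mRpS2 both replicates placed the summit on base 70. The CAGCTG begins at base 238 in mRpL24, 211 in mRpS2, 215 in mRpS33 and 189 in mRpS35. It thus stands close to the start in all 4 sequences and, in mRpL24 and mRpS2, on the other side of the stretch from the summit. The gene mRpL13 has a CAGCTG too, 41 bp downstream of its start and past the end of the sequence printed here. The windows searched for motifs ran to 50 bp after a start.

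The share of mitochondrial ribosomal protein genes with a Jarid2-GFP summit near a start was close to that of all genes. A reproducible summit lay within 1000 bp of a start of 16 of the 73 genes (21.9%), against 3556 of 13945 protein-coding genes (25.5%). In the replicates, 19, 13 and 19 of the genes had a summit among the strongest peaks (26%, 17.8% and 26%; mean 23.3% ± 4.75, SD, n = 3), where the share of all protein-coding genes was 27.2%, 24.5% and 26.5% (mean 26% ± 1.37, SD, n = 3). The share was lower than that of all genes in each replicate, and the difference between the means is smaller than the SD of the mitochondrial ribosomal protein genes and larger than that of all genes. With all 30000 peaks of a replicate, 40, 29 and 36 genes had a summit (54.8%, 39.7% and 49.3%), against 52.3%, 46.0% and 53.0% of all protein-coding genes. That share was thus higher than that of all genes in replicate 1 and lower in replicates 2 and 3. Replicate 2 held the fewest genes at both depths of list, and it was also the lowest of the 3 for all genes.

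The position of the summits differed more than their number. At 13 of the 16 genes (81.2%) the strongest summit lay nearer to the start of another gene, against 788 of 3556 protein-coding genes with a summit (22.2%). When each summit was given only to the gene with the nearest start, 3 of 73 mitochondrial ribosomal protein genes kept one (4.11%), against 20.5% of all protein-coding genes. In the replicates, the gene's own start was the nearest for 4 of 19, 3 of 13 and 3 of 19 genes (mean 20% ± 3.76, SD, n = 3), against a mean of 76.8% ± 1.77 of all protein-coding genes with a summit (SD, n = 3). The difference in means exceeds the spread of the replicates in either group, and the highest replicate value of these genes (23.1%) lies below the lowest of all genes (75.5%). With all peaks of a replicate, the gene's own start was the nearest for 17 of 40, 7 of 29 and 11 of 36 genes (42.5%, 24.1% and 30.6%; mean 32.4% ± 9.32, SD, n = 3), against a mean of 77.4% ± 1.32 of all protein-coding genes with a summit. The replicates share their genes, so their spread does not include the differences between genes, and no test was made.

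**Figure D1:**
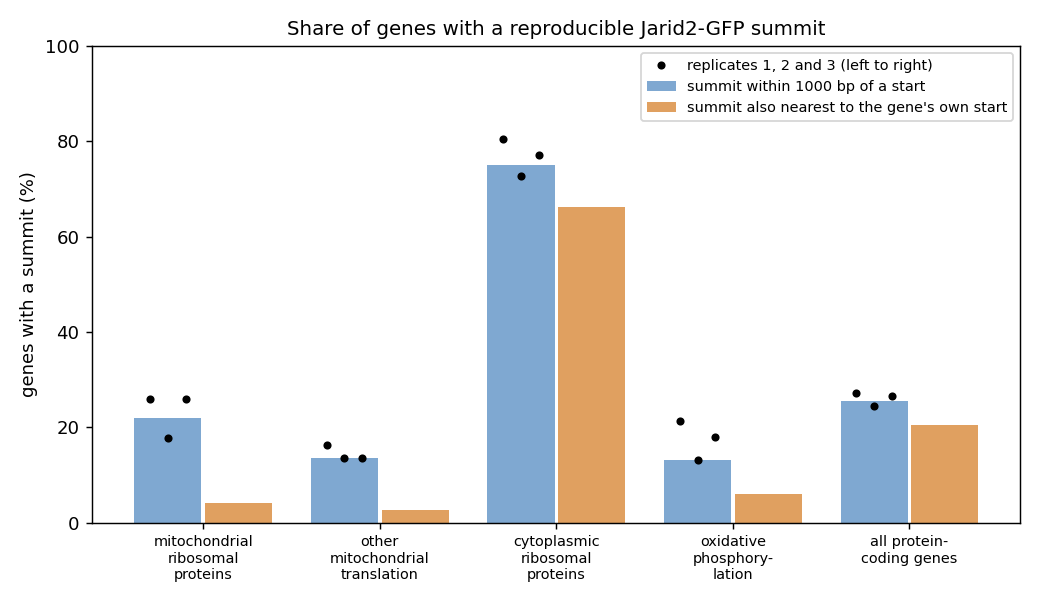
Percentage of genes (vertical axis) with a reproducible summit no farther than 1000 bp from a start (blue bars) and with a summit that is also nearest to the gene's own start (orange bars), for 5 groups of genes; black points are replicates 1, 2 and 3 from left to right, each with its 5464 strongest peaks. For mitochondrial ribosomal protein genes the blue bar stands at 21.9% and the orange bar at 4.11%, against 25.5% and 20.5% for all protein-coding genes.

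The summits were also farther from these genes' starts. The strongest summit lay at a median of 407 bp from the nearest start of the mitochondrial ribosomal protein gene, against 84 bp for all protein-coding genes with a summit. Where another gene started head to head within 1000 bp, the medians were 408 bp and 126 bp. It was within 100 bp at 1 of 16 genes (6.25%), against 57.1% of all genes with a summit, and upstream of the start at 14 of 16 (87.5%), against 42.4%. The annotation placed 10 of the 16 summits in a 5' UTR, of which 9 belong to the other gene and 1 to mRpL23, and 6 between genes. By signal the 16 summits ran over nearly the whole reproducible list, with ranks of 167 to 4554 and a median of 1417.5, against a median of 1957.5 for all genes with a summit. The order turned round within 500 bp, where the median rank was 3774, against 1960 for all genes. With replicate 1, 2 or 3 left out it was 577, 978 and 573, against 1509, 1529.5 and 1587.5. All 16 had a matching summit within 200 bp in every replicate list, as had 3392 of all 3556 genes with a summit. Of the 16, 11 (68.8%) were matched among the strongest peaks of every replicate, against 76.5% of all genes with a summit. The reproducible list was made from these replicates, so the matches are not independent of it.

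**Figure D2:**
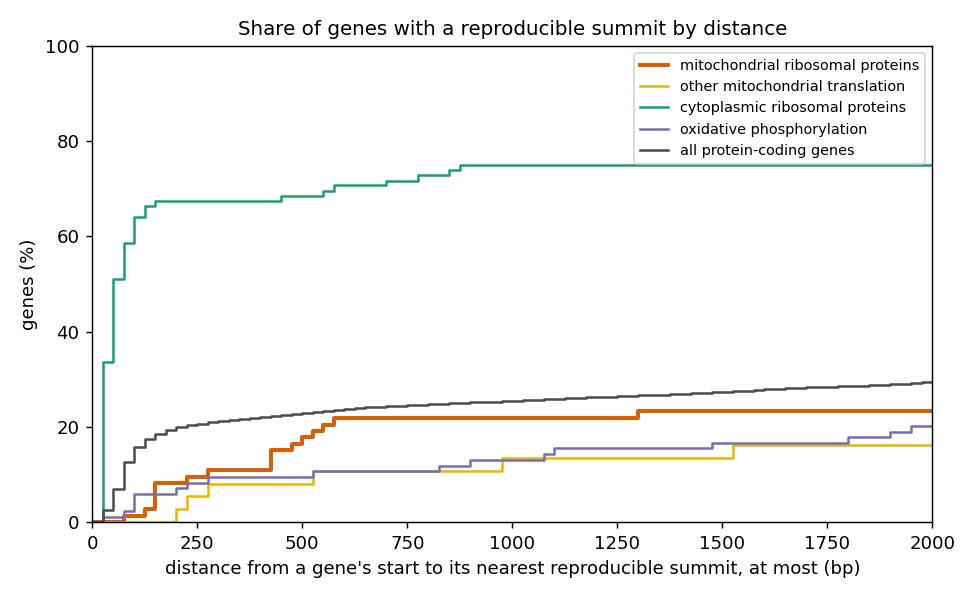
Percentage of genes (vertical axis) whose nearest reproducible summit lies no farther from a start than the distance on the horizontal axis (bp), 1 line for each of 5 gene groups. The line of mitochondrial ribosomal protein genes stands at 1.37% at 100 bp, 8.22% at 200 bp and 21.9% at 1000 bp, while that of all protein-coding genes is already at 15.8% at 100 bp.

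Of the large-subunit genes, 3 had no start nearer to their summit than their own. The strongest was mRpL41 (FBgn0034001, chromosome 2R, 15217024 to 15217617, minus strand), which encodes a protein found in mitochondrial and not in bacterial ribosomes. Its peak (2R, 15217579 to 15217922) ranked 179 in the reproducible list and 178, 373 and 68 in replicates 1, 2 and 3, with the summit 148 bp upstream of the start and the divergent start of CG8079 762 bp away from that of mRpL41. The gene mRpL23 (FBgn0035335, 3L, 2372844 to 2373704, minus strand) has 3 annotated starts and encodes a protein whose bacterial counterpart sits at the exit of the peptide tunnel. Its peak (3L, 2373460 to 2373734) ranked 573, and 672, 880 and 262 in the replicates, with the summit 66 bp downstream of a start in its own 5' UTR. The start of CG9004 on the opposite strand lies 24 bp from a start of mRpL23. The third gene, mRpL13 (FBgn0032720, 2L, 18858028 to 18859248, minus strand), had a weaker peak (2L, 18859150 to 18859599) at rank 3774, and at 6639, 2637 and 4681 in the replicates, so that replicate 1 had it outside its 5464 strongest. Its summit was 127 bp upstream of a start position that the annotation also gives to CG10602 on the same strand, so the summit belongs equally to both. Thus mRpL41 and mRpL23 were in the top 1000 of each replicate, and mRpL13 was outside it in each.

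Of the other 7 large-subunit genes, mRpL55 had the highest rank. Its peak (3R, 19093957 to 19094338) ranked 234 in the reproducible list and 397, 179 and 230 in replicates 1, 2 and 3. The summit was 704 bp downstream of the mRpL55 start, beyond the end of this short gene, and 69 bp from a start of cdi, a protein kinase gene on the same strand, in whose 5' UTR it falls. A weaker summit of rank 5155 lay 148 bp upstream of mRpL55 and nearest to ATPsynD, an ATP synthase subunit gene that starts 95 bp away on the opposite strand. At mRpL34 the peak ranked 577, and 568, 572 and 763 in the replicates. Its summit was 461 bp upstream of mRpL34 and 77 bp inside Dg, which encodes the matrix receptor dystroglycan. Both peaks were strong in every replicate and both lay at the neighbour.

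At mRpL24, whose bacterial counterpart starts assembly of the large subunit, the peak ranked 1379, and 1183, 2009 and 1156 in replicates 1, 2 and 3, with the summit 125 bp upstream of mRpL24 and 93 bp from betaggt-I, which encodes the beta subunit of a geranylgeranyl transferase. The summit at mRpL22, related to a protein that lines the peptide tunnel in bacteria, ranked 2239, and 2671, 2352 and 2282 in the replicates. It lay 559 bp upstream of mRpL22 and 60 bp from the start of if, which encodes an integrin alpha subunit. Both peaks were among the 2732 strongest of every replicate. The remaining 3 had lower ranks. At mRpL20 the peak ranked 3994, and 11963, 3745 and 2916 in the replicates, with the summit 219 bp from mRpL20 and 180 bp from Icmt, which encodes a carboxyl methyltransferase. It lies near the middle of the 399 bp between the starts, and the summit of replicate 1, at 193 bp, was nearest to mRpL20 itself. At mRpL18, related to a 5S RNA-binding protein of bacteria, the peak ranked 4364, and 3738, 6206 and 4916 in the replicates, with the summit 113 bp inside Taz, the gene of the cardiolipin remodelling enzyme tafazzin, which starts 20 bp from mRpL18. At mRpL33 it ranked 4396, and 4591, 4271 and 4733 in the replicates, inside the 5464 strongest of each, with the summit 424 bp upstream of mRpL33 and 29 bp inside norpA, the phospholipase C gene of vision.

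All 6 small-subunit genes with a summit had it nearer to a divergent neighbour. The highest rank of all 16 genes was that of mRpS23 (2L, peak 13835304 to 13835644), with rank 167 in the reproducible list and 231, 243 and 81 in replicates 1, 2 and 3. The summit was 408 bp upstream of mRpS23 and 84 bp from CenG1A, which encodes an Arf GTPase-activating protein, between the 2 starts. At mRpS6 the peak ranked 557, and 503, 551 and 658 in the replicates, 509 bp upstream of mRpS6 and 61 bp inside Cip4, the gene of an F-BAR membrane protein. At mRpS26 it ranked 559, and 494, 524 and 735 in the replicates, 499 bp upstream of mRpS26 and 69 bp inside CG13698. These 3 peaks were among the 1000 strongest of every replicate.

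Lower in the lists, the mRpS31 peak ranked 1456, and 1268, 1356 and 2297 in replicates 1, 2 and 3, 85 bp inside hzg. The mRpS21 peak ranked 3874, and 4388, 6121 and 2834 in the replicates, 109 bp inside Droj2, which encodes a DnaJ-type co-chaperone. The mRpS22 peak ranked 4554, and 3457, 10103 and 5244 in the replicates, 135 bp from CG5003 and 257 bp from mRpS22. The last 2 were outside the 5464 strongest peaks of replicate 2. By subunit, 10 of 47 large-subunit genes (21.3%) and 6 of 26 small-subunit genes (23.1%) had a reproducible summit, shares that both lie near the 25.5% of all genes. By number, 10 of 42 genes in the range of the bacterial names (up to 36 for the large and 21 for the small subunit) had one (23.8%), and 6 of 31 with higher numbers, mostly proteins that bacterial ribosomes lack (19.4%).

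**Figure D3:**
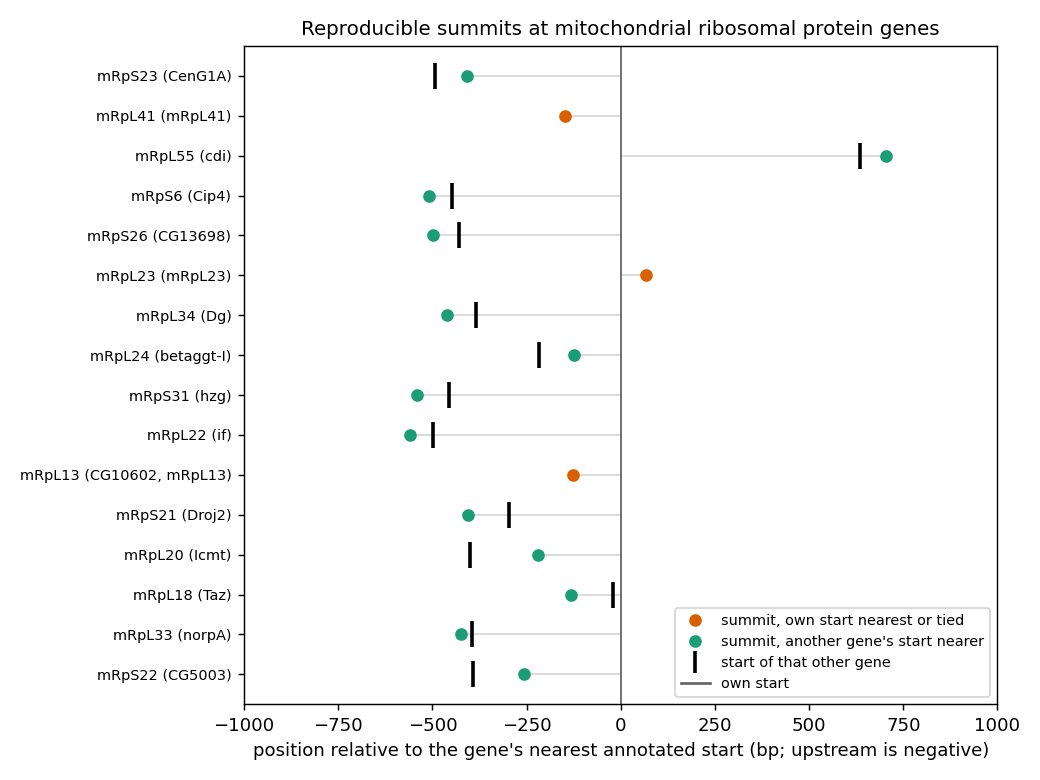
Position of the strongest reproducible summit (circles) relative to the nearest annotated start of each of the 16 genes, in bp on the horizontal axis with upstream negative; genes run from the strongest summit at the top to the weakest, with the gene of the nearest start in brackets, and black ticks are the starts of the other genes. Orange circles, at mRpL41, mRpL23 and mRpL13, have no nearer start than their own. Each of the 13 green circles lies nearer to a tick than to its own start, some by little, as at mRpL20 (180 against 219 bp).

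Head-to-head neighbours were common among these genes. A start of another gene on the opposite strand, running away from it, lay within 1000 bp upstream at 58 of 73 genes (79.5%), against 39.6% of all protein-coding genes. The distance between the 2 starts was 20 to 793 bp with a median of 283 bp, against a median of 298 bp for all protein-coding genes with such a neighbour. Of the 58 genes, 15 had a reproducible summit (25.9%), against 30.7% of all protein-coding genes with a divergent neighbour. At 13 of the 15 (86.7%) the strongest summit was nearer to the start of some other gene, against 43.1% of all genes of this kind with a summit. That other gene was the divergent neighbour at 12 of the 13, and at mRpL55 it was cdi on the same strand. Given only to the nearest start, 2 of 58 kept a summit (3.45%), against 18.8%. The difference in position was therefore also present among genes that all had a divergent neighbour.

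Without a divergent neighbour, 1 of 15 genes, mRpL13, had a reproducible summit (6.67%), against 22.1% of all protein-coding genes of this kind. Where no other gene started within 1000 bp, 0 of 13 had one, against 22.1% of all such genes. Among the strongest peaks of the replicates, 0 of these 13 genes had a summit in any of the 3, against 22%, 21.8% and 20.9% of all such genes. With all peaks, 4, 2 and 1 of the 13 had a summit in replicates 1, 2 and 3 (30.8%, 15.4% and 7.69%), against 46.3%, 44.9% and 47.9% of all such genes. These summits were nearest to the gene's own start, which is nearly fixed by the absence of other starts within 1000 bp. Most of the genes had a single annotated start (67 of 73, 91.8%, against 73.5% of all protein-coding genes), which bears on these counts because each further start widens the stretch searched. Among genes with 1 start, 15 of 67 had a reproducible summit (22.4%), against 18.5%. This order is the reverse of that for genes with any number of starts (21.9%, against 25.5%). The strongest summit was nearest to that single start at 2 of 67 (2.99%), against 13.8%.

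Most of the 57 genes without a reproducible summit had weak peaks or none. No list held a summit for 25 of them, of which 17 had a divergent neighbour and 8 did not. These were mRpL3, mRpL4, mRpL10, mRpL12, mRpL15, mRpL16, mRpL28, mRpL36, mRpL38, mRpL42, mRpL46, mRpL47, mRpL48, mRpL49, mRpL51, mRpL52, mRpS5, mRpS7, mRpS9, mRpS14, mRpS18A, mRpS18C, mRpS30, mRpS33 and mRpS35. Another 14 had a summit in 1 replicate list, 11 in 2 and 7 in 3, and the pooled list of 30000 peaks held 9 of the 57. With the 16 genes that had a reproducible summit, the pooled list held 25 of 73 (34.2%), against 46.2% of all protein-coding genes. How many of all protein-coding genes lacked a summit in every list was not counted. Among the 7 found in every replicate, mRpL1, whose bacterial counterpart forms the mobile stalk of the large subunit, had the highest rank of the 57 in the pooled list and was singled out after its values were seen. It ranked 5690 there and 5971, 5951 and 10367 in replicates 1, 2 and 3, outside the 5464 strongest of each, with summits 15, 41 and 99 bp upstream of its own start. The others were mRpL2, mRpL17, mRpL30, mRpL32, mRpL39 and mRpS17.

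Among the 57 there were 6 genes with a summit among the 5464 strongest peaks of at least 1 replicate. The gene mRpS10, between whose start and that of the arginine methyltransferase gene Art3 lie the 257 bp printed above, had a peak of rank 143 in replicate 1 and 43 in replicate 3, with the summit 121 and 115 bp from Art3. Replicate 2 had no peak there among its 30000, and neither had the pooled list. Replicate 2 lacked more of the shared strong peaks than the others. Of peaks among the 200 strongest of both other replicates, replicate 2 lacked 2, of which 1 was also absent from the pooled list, and replicates 1 and 3 lacked 0. Of peaks among the 2732 strongest of both other replicates, replicate 2 lacked 75, of which 43 were also absent from the pooled list, while replicate 1 lacked 5 and replicate 3 lacked 9. The mRpS2 peak, 70 bp from Mon1, which encodes a factor of endosome maturation, ranked 1168 in replicate 1 and 1199 in replicate 3 and was likewise absent from replicate 2 and the pooled list. Both peaks rest on 2 replicates, and the cause of their absence from the third was not tested.

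The other 4 genes had weaker peaks. At mRpS11 the summit lay 3 bp downstream of its own start in replicates 1 and 3, at ranks 3781 and 6279, and replicate 2 had none. At mRpL39 the ranks were 4881, 6599 and 8999 in replicates 1, 2 and 3, with the summit nearest to mRpL39 in replicate 1 and to the proteasome gene Prosbeta2 in replicates 2 and 3. The mRpL32 ranks were 4880, 20959 and 8781, nearest to qless in all 3 replicates. The mRpL17 ranks were 5528, 9219 and 5110, nearest to Tudor-SN, which encodes a nuclease with a Tudor domain. Each of these 4 peaks was among the 5464 strongest of 1 replicate.

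**Figure D4:**
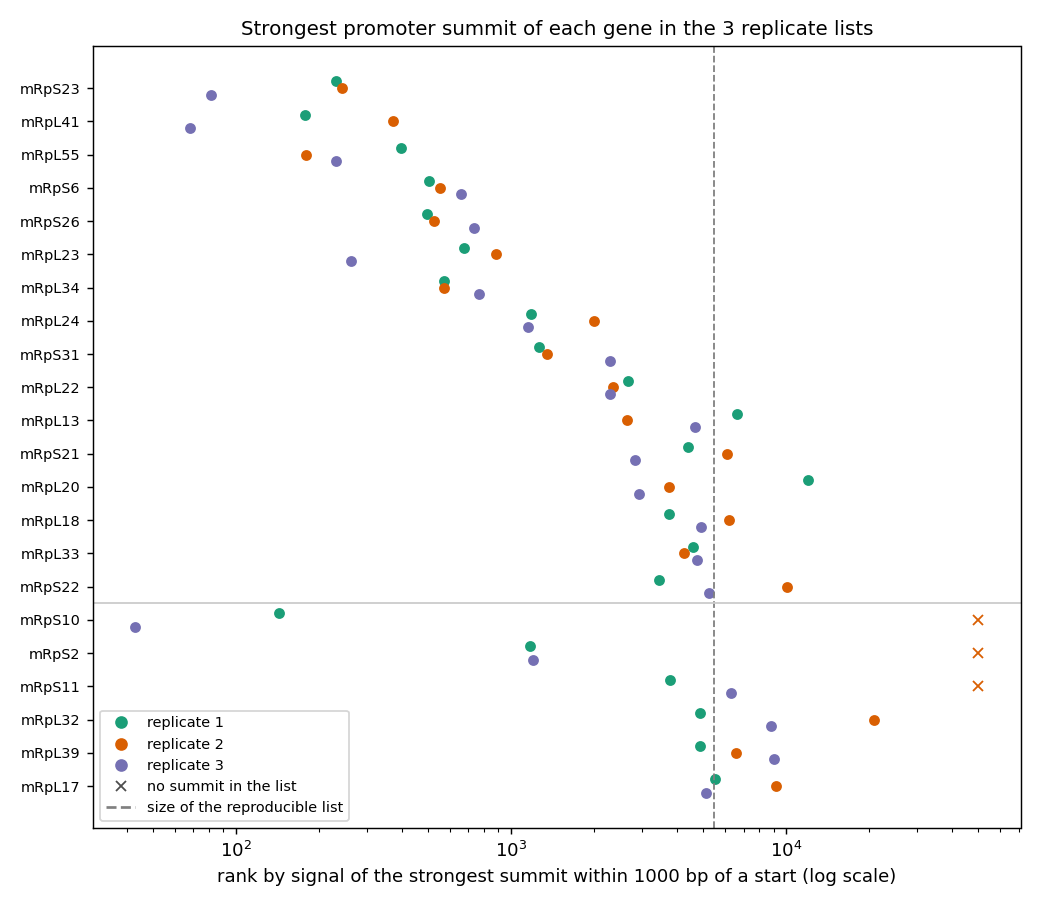
Rank by signal (horizontal axis, log scale, 1 is the strongest) of the strongest summit within 1000 bp of a start in replicates 1, 2 and 3, for the 16 genes with a reproducible summit (above the grey line, by rank) and the 6 without that had one among the 5464 strongest peaks of a replicate (below it). Crosses at the right edge mark lists without a summit, and the dashed line is at 5464; at mRpS10, mRpS2 and mRpS11 replicate 2 has a cross.

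At the limit of 1000 bp the farthest strongest summit inside was that of mRpL55, at 704 bp. Just outside, at 1133 and 1169 bp, were second summits of mRpL18 and mRpL34, at ranks 4551 and 5300. The next was a summit of rank 1575 at 1287 bp from mRpL27, nearest to RpL27A, a cytoplasmic ribosomal protein gene.

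A further list, mostly of genes of mitochondrial gene expression, also had few reproducible summits nearest to its genes' own starts. A list of 37 genes, mostly of mitochondrial translation and its templates, held aminoacyl-tRNA synthetases, translation factors, and transcription and DNA maintenance factors. It also took in the ribosomal protein genes bonsai and tko, and OXA1L and mge. Of the 37, 5 had a reproducible summit (13.5%, against 25.5% of all protein-coding genes). At 4 of the 5 it was nearer to another gene (80%, against 22.2%), so that with nearest starts 1 of 37 kept a summit (2.7%, against 20.5%). The strongest was at mtTFB1, a ribosomal RNA methyltransferase gene, with rank 1001 and 844, 1155 and 949 in replicates 1, 2 and 3, 516 bp upstream and nearest to CG11658. At ArgRS-m the rank was 1227, and 1437, 1286 and 1269 in the replicates, nearest to CG17816. At LeuRS-m the rank was 1581, and 1830, 1853 and 1304 in the replicates, with the summit 965 bp upstream and nearest to Dhc64C, which encodes the cytoplasmic dynein heavy chain. The gene mtSSB, which encodes the single-stranded DNA-binding protein of mitochondria, was the exception with its own start nearest, at rank 2078 and at 2339, 2062 and 2347 in the replicates. The fifth was mRF1, a release factor gene, at rank 5094 and at 4678, 8223 and 7502 in the replicates. The synthetase genes AlaRS-m, AsnRS-m, AspRS-m and CysRS-m had no reproducible summit, nor did bonsai and tko. With all peaks of a replicate, the own start was nearest for 58.8%, 60% and 61.5% of the list's genes with a summit. The mitochondrial ribosomal protein genes stood at 42.5%, 24.1% and 30.6% there, and all protein-coding genes at a mean of 77.4%.

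Cytoplasmic ribosomal protein genes, whose products form the other ribosome of the cell, gave different values. Of 92, 69 had a reproducible summit (75%), at a median of 29 bp from the start, and at 8 of the 69 (11.6%) it was nearer to another gene. They too often had a divergent neighbour (63%, against 79.5% of the mitochondrial ribosomal protein genes). Among those with one, 48 of 58 had a summit (82.8%), nearer to another gene at 7 of the 48 (14.6%). In the replicates, 80.4%, 72.8% and 77.2% of the cytoplasmic genes had a summit among the strongest peaks, so the values of the mitochondrial ribosomal protein genes, 26%, 17.8% and 26%, did not overlap with them, while all protein-coding genes stood at 27.2%, 24.5% and 26.5%. Of 84 genes of oxidative phosphorylation, which include the subunits that work beside the products of mitochondrial translation, 11 had a reproducible summit (13.1%, against 25.5% of all protein-coding genes). It was nearer to another gene at 7 of the 11 (63.6%), against 22.2% of all genes with a summit. The shares of all protein-coding genes include the genes of these groups.

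The promoter sequences of the mitochondrial ribosomal protein genes shared features that were not used to choose them. In windows of 250 bp before to 50 bp after a start, read on both strands, the E-box CAGCTG occurred at 41 of 73 genes (56.2%), against 22.3% of all protein-coding genes and 12% of cytoplasmic ribosomal protein genes. Among genes with a divergent neighbour the shares were 55.2% and 27.2% of all such genes. The match lay within 100 bp of the start at 40 of the 41 genes (97.6%), at a median of 5 bp downstream, against 70.2% of the matches of all genes, whose median was 41 bp upstream. The DNA replication-related element TATCGATA, a common element of housekeeping promoters, was present at 21.9%, against 10.2% of all protein-coding genes. The core of promoter motif 1, GGTCACACT, was present at 11%, against 6.78%, and CACGTG, another E-box, at 6.85%, against 5.3%. GAGAG, a core of sites of GAGA factor, was present at 17.8%, against 36.3%. GCCAT, the core of the site of the Polycomb recruiter Pho, was present at 35.6%, against 47.9%, and TATAAA at 47.9%, against 51.2%. None of these 7 motifs contains another, and a match is a string of letters and not a measured site.

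The E-box did not separate genes with a summit from those without, being present at 9 of 16 with a reproducible summit and 32 of 57 without. Within a window of about 100 bp around the 16 summits, CAGCTG occurred in 1 (6.25%), against 4.49% of 2805 summits near the starts of protein-coding genes. GCCAT occurred in 2 (12.5%), against 13.4%, TATAAA in 1 (6.25%), against 10.1%, and GAGAG in 0, against 15.7%. TATCGATA, GGTCACACT and CACGTG occurred in 0 of the 16 windows, against 1.11%, 0.606% and 1.78%. With 16 windows, shares this low cannot be told apart.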

How the data were processed

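ChIP-seq peak lists of 3 biological replicates of Jarid2-GFP embryos were used. Per the deposited notes, each replicate list was made from the alignment of that replicate and a control alignment, the pooled list from all 3 alignments and the control, and the reproducible (IDR) list from the replicate and pooled lists. No source used here names the aligner or the peak caller. The deposited signal has its own scale in each list and was used for ranks only; the deposited −log10 q-value was not used. The reproducible list was made from the same replicates, so their support of it is not independent. The lists in dm3 coordinates were not used.

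Summits on 6 chromosomes were matched in Python 3.11.15 (pandas 2.3.3, numpy 2.4.6; figures in matplotlib 3.10.9) to all annotated starts of Ensembl release 115 (BDGP6.54, dm6 coordinates counted from 1), with transposable elements left out. Replicate summits matched within 200 bp. The assignment was tested on simulated summits. Sequences came from the RefSeq Release 6 assembly. The comparison lists were set by symbol, and 6 symbols of the mitochondrial translation list were not matched. All genes of the group could be named, with full values for those with their own start nearest, the 12 strongest with another start nearer, and those with a summit among the strongest peaks of a replicate. The gene mRpS22, the last of the 13 with another start nearer, was added afterwards. From the mitochondrial translation list, the 4 strongest and the first 4 by name without a summit were named, and mRF1, bonsai and tko were added afterwards. Members, lists and tests were chosen with earlier results of these data known, so shares are descriptions without tests. The spread is that between biological replicates. Alternatives were other distances, nearest starts, parts of lists, coding starts and replicates left out.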

Additional observations from a re-analysis of the deposited data

How the results depend on the processing

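Of the 16 mitochondrial ribosomal protein genes with a reproducible summit, the count was 13 within 500 bp, 17 within 2000 bp and 16 with protein-coding transcript starts or without summits close to a stronger one. It was 3 with nearest starts, 10 among the 2732 strongest reproducible peaks, 25 in the pooled list, and 6 within 200 bp and 1 within 100 bp, the last 2 distances chosen after seeing the data. The shares were 17.8% within 500 bp, against 22.9% of all protein-coding genes, and 23.3% within 2000 bp, against 29.5%. They were 13.7% among the 2732 strongest reproducible peaks, against 16.4%, and 34.2% in the pooled list, against 46.2%. With nearest starts they were 4.11%, against 20.5%, within 200 bp 8.22%, against 19.9%, and within 100 bp 1.37%, against 15.8%. Leaving out replicate 1, 2 or 3, that is, keeping reproducible peaks matched by both others, gave 13, 14 and 11. The strongest summit was nearer to another gene's start at 10 of these 13, 12 of these 14 and 9 of these 11. Among the 2732 strongest reproducible peaks it was so at 8 of 10. The median rank of 1417.5 was 3774 within 500 bp, 573 with nearest starts and 573 to 978 with a replicate left out. The mean replicate share of 23.3% was 16% with the 2732 strongest peaks and 47.9% with all peaks. With nearest starts the counts were 3 for the large and 0 for the small subunit, 2 for bacterial-range and 1 for higher numbers, 2 with a divergent neighbour, 1 for the mitochondrial translation list and 5 for oxidative phosphorylation. Without a replicate, bacterial-range genes numbered 6 to 8, and genes with no divergent neighbour 0 to 1: mRpL13 was lost without replicate 2 and without replicate 3. The mitochondrial translation list had 3 within 500 bp, and oxidative phosphorylation 17 within 2000 bp and 18 in replicate 1 alone. In place of promoters, 100 bp around the summits held CAGCTG at 6.25%, GCCAT at 12.5%, TATAAA at 6.25% and the DNA replication-related element, promoter motif 1, CACGTG and GAGAG at 0%. Depth was unknown, so a peak missing from 1 replicate could not be set against its read number. No paired analysis was possible because there was 1 group.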
